A study of Homo sapiens with 12 samples.

Results

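The 36 genes described here build cholesterol and fatty acids or move cholesterol within and out of the cell, and they were followed in HMEC-1, an immortalised endothelial cell line from small vessels of human skin. They were chosen by name, as 18 enzymes of sterol synthesis, 5 genes of the SREBP control of that pathway, 8 enzymes of fatty acid synthesis, elongation and desaturation, and 5 genes of cholesterol efflux and export. Each name was matched to the gene symbols of the deposited table, and transcript values were summed per symbol. All 36 names were found among 36433 symbols. All 36 also passed a filter of at least 1 TPM (an abundance per transcript length, scaled so that every library has the same total) in at least 3 libraries, which 13750 symbols passed.

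Cells were given a miR-126 mimic, a miR-143 mimic or a miR-150 mimic, and they were compared with cells given a scrambled RNA. Every group received its RNA at 50 nM with the lipid reagent Lipofectamine RNAiMAX, was collected after 48 h and has 3 libraries, numbered 2 to 4 in the labels. A mimic is a synthetic RNA duplex that raises the level of a given microRNA, and microRNAs repress transcripts that carry sites pairing with them. The study's title places the 3 microRNAs in abnormal vessel growth in the retina, whereas the cells sequenced are a single line from skin vessels. Whether a group's libraries came from separate cultures is not stated in the labels, so the p-values reflect library-to-library spread alone and that spread may be technical.

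Cholesterol is made from acetyl-CoA through mevalonate, isoprenoid diphosphates, squalene and lanosterol. When membranes of the endoplasmic reticulum are low in sterol, the escort protein SCAP carries the transcription factors SREBP1 and SREBP2 to the Golgi, where they are cut and released to switch on the genes of this pathway and of fatty acid synthesis; INSIG proteins hold the complex back when sterol is plentiful. Surplus sterol instead activates the LXR receptors, which switch on efflux genes such as ABCA1, ABCG1 and MYLIP, and endothelial cells use both arms to balance cholesterol taken up from plasma against what they make.

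The mature microRNAs are shown because their seeds, bases 2 to 8 in capitals, set which sites in the members' 3' UTRs can pair. The labels do not say which arm of the hairpin a mimic delivers, so both arms are given for miR-126 (chromosome 9) and miR-143 (chromosome 5), as listed by RefSeq on GRCh38.p14. No mature miR-150 sequence was found in the source used, so matches to its seed were not searched.
hsa-miR-126-3p: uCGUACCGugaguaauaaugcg
hsa-miR-126-5p: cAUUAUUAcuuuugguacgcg
hsa-miR-143-3p: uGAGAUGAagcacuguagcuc
hsa-miR-143-5p: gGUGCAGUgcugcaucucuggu
The 4 seeds differ from each other.

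In the longest 3' UTR of each gene's protein-coding transcripts in GENCODE 29, the match to the miR-126-3p seed, CGGTACG, was found in 0 of 36 members and in 0.298% of 12429 tested genes with such a UTR. The match to the miR-143-3p seed, TCATCTC, was found in 3 members, SCAP, STARD4 and ABCA1 (8.33%), and in 14.4% of tested genes. For miR-126-5p the match TAATAAT was found in 7 members (19.4%), against 19.9% of tested genes. These were HMGCS1, IDI1, SC5D, SCAP, STARD4, SCD and ABCA1, so all 3 members with a miR-143-3p match also have this one. For miR-143-5p the match ACTGCAC was found in FADS1 and MYLIP (5.56%), against 18.2%. The 3 members with a miR-143-3p match are shown with 10 bases on each side of the match, which is in capitals.
SCAP: agcttgggtgTCATCTCagacaacctg
STARD4: atattaaaatTCATCTCttgcagttca
ABCA1: ctcaaattttTCATCTCttcaatcact
The match lies at bases 3664 to 3670 of a STARD4 3' UTR of 3853 bases, at bases 1656 to 1662 of 3313 in ABCA1 and at bases 1137 to 1143 of 1514 in SCAP. A match describes the letters and is not by itself a site that is used.

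The libraries held 12299 to 13564 symbols at 1 TPM or more, and TPM keep no read totals, so depth is unknown. All 10 endothelial markers examined were detected, with a summed level of 1147 to 1745 TPM in miR-126 libraries, 1109 to 2043 TPM in miR-143 libraries, 1010 to 1796 TPM in miR-150 libraries and 1361 to 2081 TPM in scrambled RNA libraries. Among markers of other cell types, the liver and fat genes ALB, APOA1 and ADIPOQ reached at most 0.152, 0.124 and 0.0947 TPM in any library. CYP7A1 and PLIN1 of the same list reached at most 0.036 and 0.304 TPM, whereas its remaining gene, FABP4, had 7.21 to 24.3 TPM. The leukocyte list summed to 1.84 to 4.16 TPM, and of the epithelial list CDH1 stayed at 0.0187 to 0.23 TPM. The epithelial marker KRT18 had 492 to 539 TPM in miR-126 libraries, 697 to 905 TPM in miR-143 libraries, 853 to 978 TPM in miR-150 libraries and 421 to 599 TPM in scrambled RNA libraries, so it separates the miR-143 and miR-150 libraries from scrambled RNA, and its part in the results was not tested. A pair of libraries stood apart: in miR-143 library 4 and miR-150 library 4 a gene's deviation from its mean fell with transcript length (Spearman's rho across 13656 genes −0.398 and −0.547, a description, since genes are not independent replicates), against −0.00844 to 0.289 in the other 10. Libraries numbered 3 stood apart as well, in the sterol genes themselves, as described below. In bulk RNA, fewer cells of a type and less RNA per cell cannot be told apart.

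Levels differed widely between the members. FDPS, farnesyl diphosphate synthase, had the highest mean over 12 libraries among sterol enzymes (506 ± 135 TPM, SD), followed by FDFT1, squalene synthase, at 480 ± 99.97 TPM. The lowest were TM7SF2, a sterol reductase, at 19.9 ± 6.26 TPM, and phosphomevalonate kinase PMVK at 18.9 ± 4.88 TPM; neighbours in this order differ by less than their spread. Among fatty acid enzymes, the desaturases FADS2 (455 ± 104 TPM) and SCD (325 ± 71.1 TPM) led and the elongase ELOVL6 (7.31 ± 4.01 TPM) came last. The efflux pump ABCA1 was nearly silent at 1.42 ± 0.63 TPM, whereas the lysosomal cholesterol carrier NPC2 stood at 409 ± 108 TPM.

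**Figure D1:**
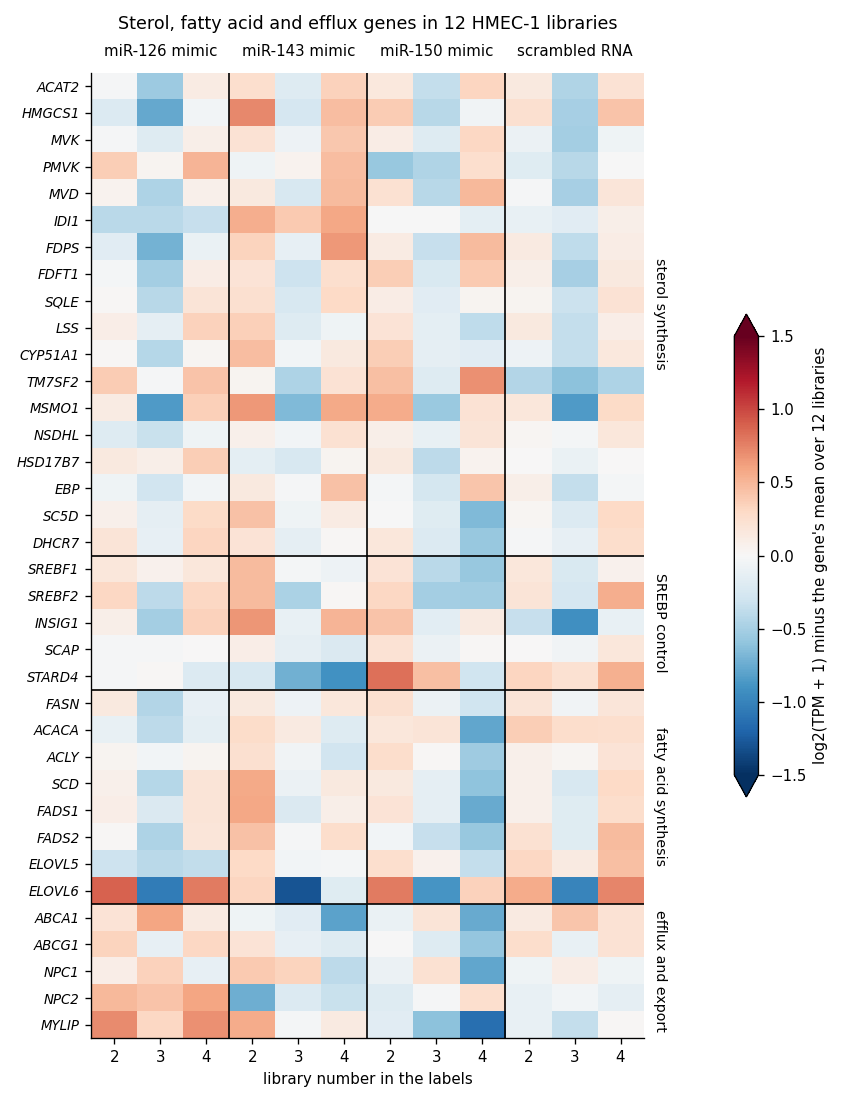
Heat map of 36 members in 12 libraries. Rows are genes grouped by role, columns are libraries 2 to 4 of each group, and colour is log2(TPM + 1) minus the gene's mean over the 12 libraries. IDI1 is high in the 3 miR-143 libraries and low in the 3 miR-126 libraries, NPC2 is high with the miR-126 mimic, and most sterol genes are low in library 3 of every group.

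Summed over the 18 sterol enzymes, the level was 2580, 1908 and 2808 TPM in miR-126 libraries 2, 3 and 4, 3315, 2363 and 3478 TPM in miR-143 libraries, 3091, 2192 and 3111 TPM in miR-150 libraries, and 2798, 2007 and 2962 TPM in scrambled RNA libraries. The ranges of the 4 groups overlap, and library 3 is the lowest in each. Set beside the scrambled RNA library of the same number, the sum was lower in all 3 miR-126 libraries. It was higher in all 3 miR-143 libraries and in all 3 miR-150 libraries. By gene, 7 of 18 sterol enzymes were lower and 4 higher at all 3 numbers with the miR-126 mimic, beside 20.5% and 41.2% of tested genes. With the miR-143 mimic 0 were lower and 12 higher, beside 25.1% and 22.7%. With the miR-150 mimic 0 were lower and 5 higher, beside 28.6% and 15.1%. Not every number paired the miR-143 or miR-150 libraries with scrambled RNA, so values set side by side by number are a description. Library 4 of the miR-143 and miR-150 groups also favours short transcripts. Mean transcript length among the 18 enzymes ran from 825 bases (EBP) to 3817 bases (LSS). The part of transcript length in these sums, counts and medians was not tested. The median log2 fold change of the 18 genes against scrambled RNA was −0.02 with the miR-126 mimic, 0.24 with the miR-143 mimic and 0.04 with the miR-150 mimic, beside medians over all 13750 tested genes of 0.10, −0.04 and −0.11. Sterol genes lay above 0 in 8, 16 and 12 of 18 cases, beside 63.6%, 44.5% and 36.8% of all tested genes. Without scrambled RNA library 3 the miR-143 median was −0.0061 with 9 of 18 above 0. That fit lacks the low library 3 of scrambled RNA but keeps the low miR-143 library 3, which by itself lowers the difference. The value of −0.0061 was the lowest of 6 medians, each without a different miR-143 or scrambled RNA library, and the highest was 0.396. Without all 4 libraries numbered 3 the miR-143 median was 0.24 with 16 of 18 above 0. These comparisons share the 3 scrambled RNA libraries, and so do all others with scrambled RNA below.

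The 8 fatty acid enzymes had median log2 fold changes of −0.17 with the miR-126 mimic, −0.08 with the miR-143 mimic and −0.26 with the miR-150 mimic, with 1, 3 and 0 of 8 above 0. For the 5 genes of SREBP control the medians were −0.05, −0.13 and −0.04. For the 5 efflux and export genes they were 0.12, −0.16 and −0.38, with 5, 2 and 1 of 5 above 0. With the miR-126 mimic 63.6% of all tested genes lay above 0, and with each library centred on its median gene the efflux median was −0.0221.

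**Figure D2:**
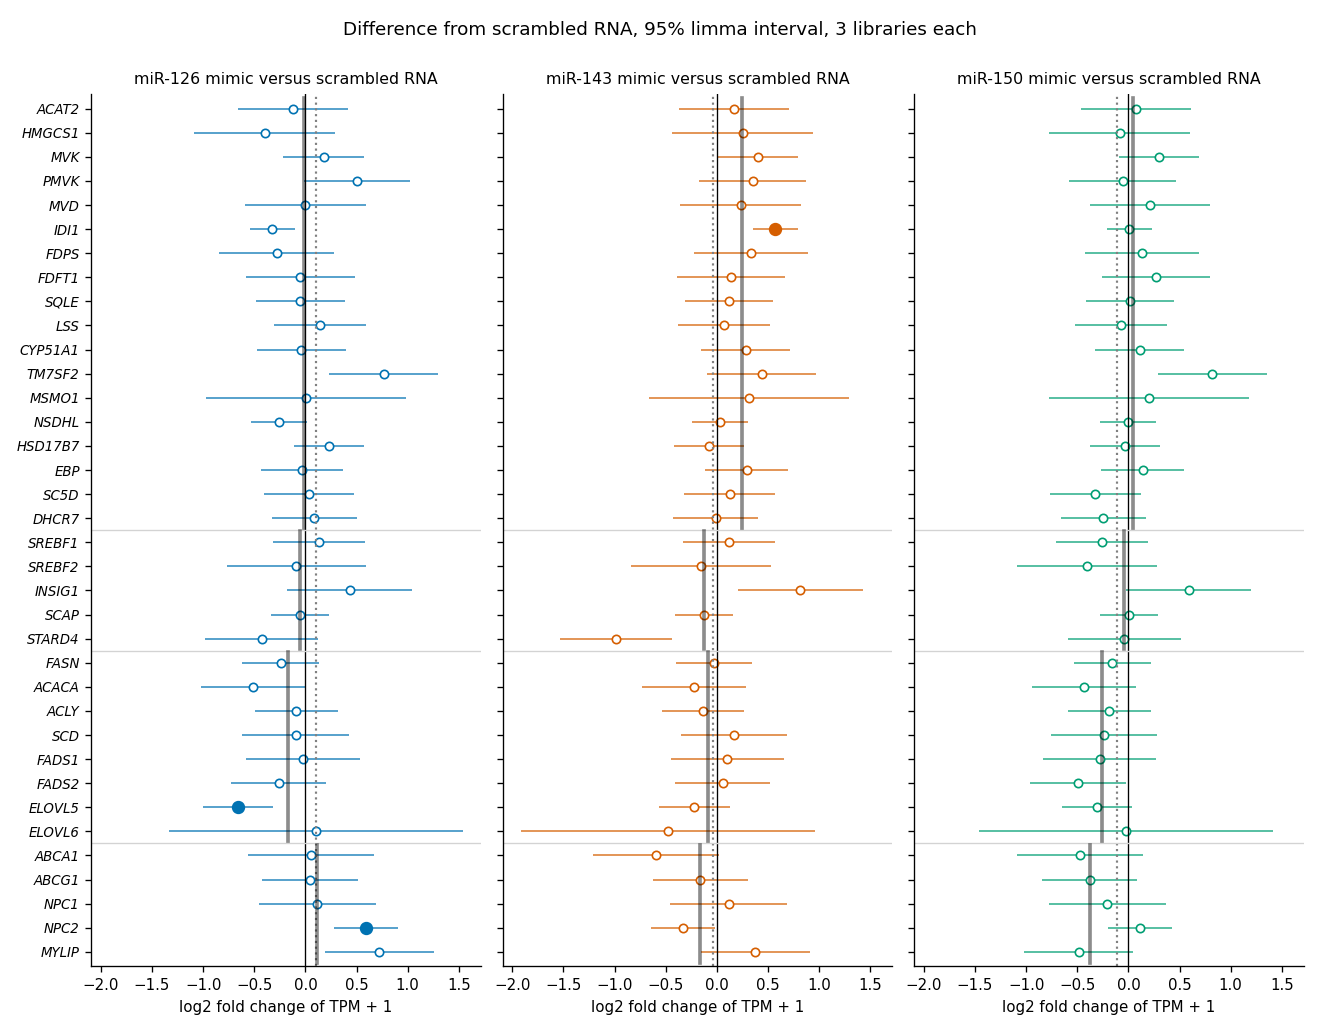
Log2 fold change of TPM + 1 against scrambled RNA for each of 36 members, with the 95% limma interval (3 libraries in each group), with the miR-126 mimic on the left, miR-143 in the middle and miR-150 on the right. Filled points passed an adjusted p of 0.05, grey bars mark the median of each list and the dotted line marks the median of all tested genes. ELOVL5 and NPC2 passed with the miR-126 mimic and IDI1 with the miR-143 mimic. With the miR-143 mimic 16 of 18 sterol genes lie right of 0, beside 44.5% of all tested genes.

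With the miR-126 mimic, 2 of 36 members passed an adjusted p of 0.05 in limma (fitted to log2(TPM + 1), adjusted by Benjamini-Hochberg over all tested genes). NPC2 rose and the elongase ELOVL5 fell, beside 3.37% of tested genes called higher and 1.73% called lower. Over all genes 464 were called higher and 238 lower, and 354 and 547 with each library centred on its median gene. The 3 miR-126 libraries lay all above the 3 scrambled RNA libraries for 5 members and all below for 5, a share of non-overlapping groups to be read against 34.1% of all tested genes. The libraries' numbers paired these 2 groups, and with the number as a block 5 members were higher and 4 lower, beside 11.8% and 5.11% of tested genes.

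ELOVL5 lengthens polyunsaturated fatty acids (chromosome 6, 53267398 to 53349179, minus strand, GRCh38). It had 116, 108 and 111 TPM in miR-126 libraries 2, 3 and 4, against 178, 158 and 197 TPM in scrambled RNA libraries. All miR-126 libraries were below all scrambled RNA libraries, and the miR-126 values lay within a few TPM of each other. The log2 fold change was −0.66 ± 0.16 (SE, adjusted p = 0.0345 in limma). The transcript ELOVL5-201 of 2827 bases held most of the signal, with 95.3 ± 2.16 TPM in miR-126 libraries and 159.9 ± 18.5 TPM in scrambled RNA libraries (SD, n = 3 each), whereas the short ELOVL5-202 had 11.7 ± 0.54 TPM and 11.4 ± 1.18 TPM. When 1 library was left out, the call held in 1 of 6 fits (without scrambled RNA library 3), at adjusted p of 0.0482 to 0.158.

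NPC2 hands cholesterol to NPC1 inside lysosomes, the step at which cholesterol from lipoproteins leaves that organelle (chromosome 14, 74476192 to 74494177, minus strand). Its levels were 557, 534 and 596 TPM in miR-126 libraries 2, 3 and 4, against 367, 386 and 361 TPM in scrambled RNA libraries. No miR-126 library overlaps the scrambled RNA range. The log2 fold change was 0.60 ± 0.14 (SE, adjusted p = 0.0354 in limma). The call was lost in each of 6 fits that left out 1 library (adjusted p = 0.0713 to 0.142) and with each library centred on its median gene (log2 fold change 0.46, adjusted p = 0.315). NPC1, the membrane partner, had 70.0, 83.6 and 60.0 TPM in miR-126 libraries, against 62.7, 70.5 and 62.4 TPM in scrambled RNA libraries, and its adjusted p was 0.884. NPC2 shares 103 exon bases with ISCA2 on the other strand, so its reads are not fully separable.

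With the block, 3 sterol enzymes were lower in miR-126 libraries. IDI1, which interconverts the isoprenoid building blocks isopentenyl and dimethylallyl diphosphate, had 87.9, 87.4 and 91.1 TPM in miR-126 libraries, against 108, 103 and 123 TPM in scrambled RNA libraries. The groups do not overlap, and the log2 fold change of −0.32 had an adjusted p of 0.0909 without the block and 0.031 with it in limma. FDPS had 434, 298 and 458 TPM in miR-126 libraries, against 537, 376 and 527 TPM in scrambled RNA libraries. These ranges overlap, and the log2 fold change of −0.28 had an adjusted p of 0.618 without the block and 0.0447 with it in limma. NSDHL, a sterol dehydrogenase that acts after lanosterol, had 55.7, 50.5 and 61.0 TPM in miR-126 libraries, against 65.2, 62.4 and 72.3 TPM in scrambled RNA libraries. Its groups do not overlap, and the log2 fold change of −0.26 had adjusted p of 0.292 and 0.0339 in limma without and with the block.

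The block also called 4 further genes higher with the miR-126 mimic, namely 2 sterol enzymes, INSIG1 and MYLIP. PMVK, which makes mevalonate diphosphate, had 23.9, 18.9 and 26.6 TPM in miR-126 libraries, against 16.1, 13.5 and 18.3 TPM in scrambled RNA libraries. The lowest miR-126 library lay just above the highest scrambled RNA library, with a log2 fold change of 0.51 (limma adjusted p = 0.272 without the block and 0.0376 with it). TM7SF2 had 25.1, 18.7 and 25.9 TPM in miR-126 libraries, against 13.7, 12.1 and 13.6 TPM in scrambled RNA libraries, with no overlap. Its log2 fold change of 0.77 had adjusted p of 0.0973 and 0.00517 in limma without and with the block. TM7SF2 is spread over 7 transcripts that each held at least 10% of its TPM in some group, and the full-length TM7SF2-201 varied between 0.000103 and 8.36 TPM in miR-126 libraries, so its level is given as the sum over transcripts.

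MYLIP, a ubiquitin ligase that marks lipoprotein receptors for degradation (chromosome 6, 16129125 to 16148248, plus strand), had 32.9, 24.8 and 32.3 TPM in miR-126 libraries, against 18.1, 15.2 and 19.97 TPM in scrambled RNA libraries. The groups do not overlap, and the log2 fold change of 0.72 had adjusted p of 0.117 and 0.033 in limma without and with the block. INSIG1, the brake on SREBP release and itself an SREBP target, had 211, 139 and 252 TPM in miR-126 libraries, against 156, 104 and 183 TPM in scrambled RNA libraries. These ranges overlap, and the log2 fold change of 0.43 had adjusted p of 0.446 and 0.0328 in limma without and with the block.

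A further 3 members had non-overlapping groups with the miR-126 mimic without a call in either fit. HSD17B7, a sterol reductase, had 38.0, 36.5 and 44.7 TPM in miR-126 libraries, against 34.4, 31.8 and 34.5 TPM in scrambled RNA libraries (limma adjusted p = 0.466), and the other two lay below. ACACA, the acetyl-CoA carboxylase that makes malonyl-CoA for fatty acid synthesis, had 49.9, 40.8 and 48.7 TPM in miR-126 libraries, against 70.3, 64.9 and 64.6 TPM in scrambled RNA libraries. Its log2 fold change was −0.51 (limma adjusted p = 0.251), and it passed with each library centred on its median gene, after quantile normalization and once both libraries favouring short transcripts were left out. STARD4, a soluble carrier that moves sterol between membranes, had 89.0, 90.9 and 78.0 TPM in miR-126 libraries, against 113, 105 and 131 TPM in scrambled RNA libraries, with a log2 fold change of −0.43 (limma adjusted p = 0.391). The symbol ACACA covers 2 Ensembl genes in the table.

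With the miR-143 mimic, 1 of 36 members passed, IDI1, which rose, beside 1.84% of tested genes called higher and 1.48% called lower. The miR-143 libraries lay all above the scrambled RNA libraries for 2 members (IDI1 and INSIG1) and all below for 3 (STARD4, ABCA1 and NPC2), read against 25.3% of tested genes. Libraries of the same number did not all deviate together in this comparison (residual correlation 0.0438 for number 2, 0.65 for number 3 and 0.174 for number 4), so no blocked value is set beside these results.

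IDI1 (chromosome 10, 1039152 to 1049170, minus strand) had 169.8, 154 and 175 TPM in miR-143 libraries 2, 3 and 4, against 108, 103 and 123 TPM in scrambled RNA libraries. The lowest miR-143 library stood well above the highest scrambled RNA library. The log2 fold change was 0.57 ± 0.10 (SE, 95% interval 0.35 to 0.79, adjusted p = 0.011 in limma). The transcript IDI1-201 of 2301 bases carried 94.2% of the gene's TPM in miR-143 libraries and 92.5% in scrambled RNA libraries. The call was lost without miR-143 library 4 (adjusted p = 0.0538), without scrambled RNA library 2 (0.065) and without the 4 libraries numbered 3 (0.0714), and held in the other 4 fits that left out 1 library. IDI1 shares 643 exon bases with the antisense gene IDI2-AS1, whose reads cannot be told apart unless strand was used.

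No other sterol enzyme passed with the miR-143 mimic. MVK, mevalonate kinase, had a log2 fold change of 0.40 (limma adjusted p = 0.291), and the remaining 16 enzymes lay between −0.08 (HSD17B7) and 0.44 (TM7SF2). HMGCS1, which makes the precursor of mevalonate, had 243, 123 and 203 TPM in miR-143 libraries, against 174, 104 and 199 TPM in scrambled RNA libraries. The groups overlap because library 3 is low in both, and the adjusted p was 0.746 in limma. FDPS likewise had 617, 450.2 and 769 TPM in miR-143 libraries, against 537, 376 and 527 TPM in scrambled RNA libraries, with a log2 fold change of 0.33 (limma adjusted p = 0.574).

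STARD4 (chromosome 5, 111496033 to 111512590, minus strand), whose miR-143-3p match is printed above, had the largest negative value of all members. Its 3' UTR also has a miR-126-5p match, at bases 3768 to 3774. It had 75.7, 54.1 and 47.5 TPM in miR-143 libraries, against 113, 105 and 131 TPM in scrambled RNA libraries. All miR-143 values lie below the scrambled RNA range. The log2 fold change was −0.98 ± 0.25 (SE, 95% interval −1.53 to −0.44) and missed the threshold (adjusted p = 0.0584 in limma). It passed once both libraries favouring short transcripts were left out (adjusted p = 0.0245), with each library centred on its median gene (0.00974) and after quantile normalization (0.0201). The transcript STARD4-201 of 4606 bases, which carries both matches, had 27.7 ± 5.55 TPM in miR-143 libraries and 65.6 ± 9.39 TPM in scrambled RNA libraries (SD, n = 3 each), or 47.3% and 56.6% of the gene's TPM. Whether either match plays a part in these values was not tested.

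INSIG1 (chromosome 7, 155297776 to 155310235, plus strand) had 314, 184 and 284 TPM in miR-143 libraries, against 156, 104 and 183 TPM in scrambled RNA libraries. The lowest miR-143 library lay barely above the highest scrambled RNA library. The log2 fold change was 0.82 ± 0.28 (SE, adjusted p = 0.157 in limma). SCAP, the other member of SREBP control with a miR-143-3p match, had 41.4, 34.9 and 32.9 TPM in miR-143 libraries, against 38.6, 37.1 and 43.4 TPM in scrambled RNA libraries, and the ranges overlap.

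The transcription factor genes themselves were not called. SREBF2, which encodes SREBP2, had 126, 65.1 and 91.5 TPM in miR-143 libraries, against 104, 76.2 and 132 TPM in scrambled RNA libraries. SREBF1 had 128, 89.7 and 86.9 TPM in miR-143 libraries, against 103, 77.9 and 95.9 TPM in scrambled RNA libraries. Neither passed (adjusted p = 0.85 and 0.819 in limma).

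Among efflux genes, ABCA1 had 1.23, 1.07 and 0.342 TPM in miR-143 libraries, against 1.55, 2.11 and 1.71 TPM in scrambled RNA libraries. All miR-143 values lie below, but library 4, which favours short transcripts, gave the lowest value for a transcript of 10494 bases, and the log2 fold change of −0.60 did not pass (limma adjusted p = 0.315). NPC2 had 238, 342 and 313 TPM in miR-143 libraries, against 367, 386 and 361 TPM in scrambled RNA libraries, also with no overlap (log2 fold change −0.33, limma adjusted p = 0.266). MYLIP had 29.3, 19.4 and 21.8 TPM in miR-143 libraries, against 18.1, 15.2 and 19.97 TPM in scrambled RNA libraries, and these ranges overlap.

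With the miR-150 mimic, 0 of 36 members passed in limma, beside 1.08% of tested genes called higher and 2.23% called lower. An unadjusted p under 0.05 was reached by 2 members, TM7SF2 and FADS2 (5.56%), against 17.4% of tested genes. Over all genes 149 were called higher and 307 lower, and 301 and 372 after quantile normalization. The miR-150 libraries lay all above the scrambled RNA libraries for 1 member and all below for 1, read against 21.5% of tested genes.

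TM7SF2 was the member above, with 26.5, 16.6 and 31.2 TPM in miR-150 libraries, against 13.7, 12.1 and 13.6 TPM in scrambled RNA libraries. Its log2 fold change was 0.82 ± 0.24 (SE, adjusted p = 0.0979 in limma). TM7SF2 passed without miR-150 library 3 (adjusted p = 0.0254) and without the 4 libraries numbered 3 (0.0356). Its mean transcript length was 1095 bases, and its highest value came from miR-150 library 4, which favours short transcripts. Without that library the log2 fold change was 0.64, the lowest of 6 fits that left out 1 library, and TM7SF2 did not pass. Nor did it pass without both libraries that favour short transcripts.

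ACACA was the member below, with 60.8, 61.9 and 31.1 TPM in miR-150 libraries, against 70.3, 64.9 and 64.6 TPM in scrambled RNA libraries. Library 4, which favours short transcripts, supplied the lowest value, and the log2 fold change of −0.43 did not pass (limma adjusted p = 0.369). INSIG1 had 267, 177 and 218 TPM in miR-150 libraries, against 156, 104 and 183 TPM in scrambled RNA libraries (log2 fold change 0.59, limma adjusted p = 0.307), and the ranges overlap. STARD4 had 159.6, 123 and 72.8 TPM in miR-150 libraries, against 113, 105 and 131 TPM in scrambled RNA libraries.

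All 8 fatty acid enzymes lay below 0 with the miR-150 mimic, at log2 fold changes of −0.49 (FADS2) to −0.02 (ELOVL6), and none passed. Only 36.8% of all tested genes lay above 0 in this comparison. Without miR-150 library 4, which favours short transcripts, 1 of 8 lay above 0 and the median was −0.0746, against −0.26 with it. FADS2, which starts the desaturation of polyunsaturated fatty acids, had 429.8, 348 and 299.6 TPM in miR-150 libraries, against 521, 390.1 and 616 TPM in scrambled RNA libraries (limma adjusted p = 0.258). The groups overlap. FASN, the synthase that builds palmitate, had 159.8, 127 and 109.6 TPM in miR-150 libraries, against 155, 130.0 and 153 TPM in scrambled RNA libraries. For every one of these enzymes except ELOVL6, miR-150 library 4 gave the lowest value of its group.

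**Figure D3:**
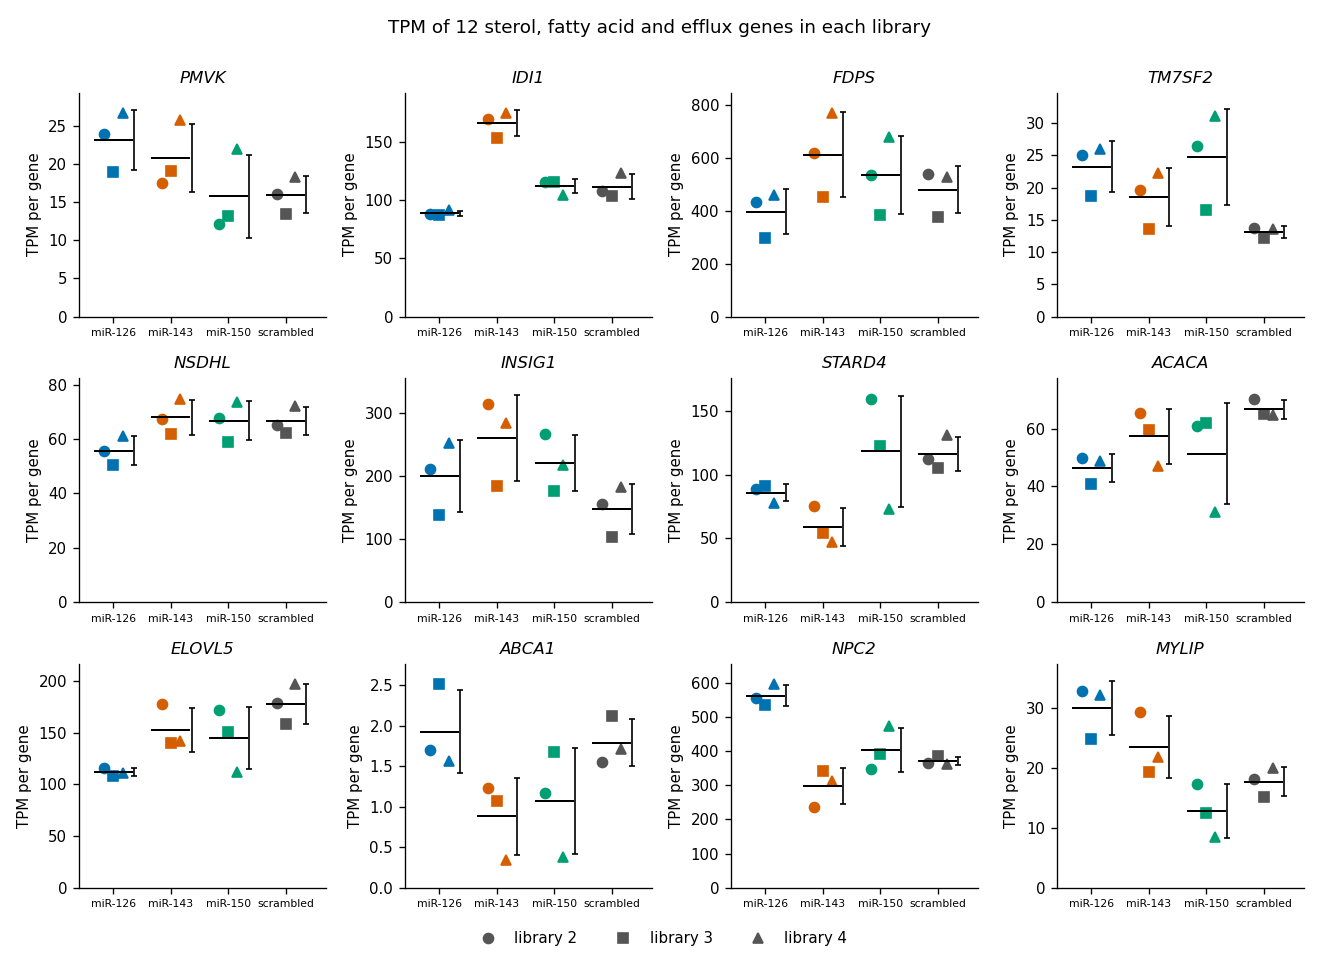
TPM per gene of 12 members in each library, with the mimics (miR-126, then miR-143, then miR-150) left of scrambled RNA. Symbols show the library number, horizontal lines the mean and bars the SD of 3 libraries. IDI1 spans 87.4 to 91.1 TPM with the miR-126 mimic and 154 to 175 TPM with the miR-143 mimic; STARD4 and NPC2 separate the miR-143 libraries from scrambled RNA without passing the threshold.

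Between the miR-126 and miR-143 mimics, 1 member was higher and 1 lower, beside 1.46% and 1.05% of tested genes. IDI1 had 87.9, 87.4 and 91.1 TPM in miR-126 libraries, against 169.8, 154 and 175 TPM in miR-143 libraries. The groups are far apart, and IDI1 was lower with the miR-126 mimic (log2 fold change −0.89, SE 0.10, adjusted p = 0.00105 in limma), and the call held whichever of the 6 libraries was left out. NPC2 had 557, 534 and 596 TPM in miR-126 libraries, against 238, 342 and 313 TPM in miR-143 libraries. It was higher with the miR-126 mimic by 0.93 ± 0.14 (SE, adjusted p = 0.00768 in limma), again whichever library was left out, but not with each library centred on its median gene (0.74, adjusted p = 0.136) or without the 4 libraries numbered 3 (adjusted p = 0.0723). Over all genes 201 were higher and 145 lower, and 156 and 282 with that centring.

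These numbers paired the miR-126 and miR-143 libraries, and the block added 4 sterol enzymes that were lower with the miR-126 mimic than with the miR-143 mimic, namely ACAT2, HMGCS1, FDPS and NSDHL, beside 3.45% of tested genes called lower with the block and 7.57% higher. HMGCS1 had 127, 86.2 and 142 TPM in miR-126 libraries, against 243, 123 and 203 TPM in miR-143 libraries, so each miR-126 library lay below the miR-143 library of the same number. ACAT2, the first enzyme of the route, had 222, 154 and 246 TPM in miR-126 libraries, against 268, 197 and 288 TPM in miR-143 libraries, with the same order within each number.

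Between the miR-126 and miR-150 mimics, MYLIP was the member called, and it was higher with the miR-126 mimic, beside 3.11% of tested genes called higher and 0.8% called lower. It had 32.9, 24.8 and 32.3 TPM in miR-126 libraries, against 17.4, 12.5 and 8.45 TPM in miR-150 libraries. The groups do not overlap, and the log2 fold change was 1.21 ± 0.24 (SE, adjusted p = 0.021 in limma). The call was lost without miR-126 library 2 (adjusted p = 0.103), without miR-126 library 4 (0.0979) and without the 4 libraries numbered 3 (0.0849). Over all genes 427 were higher and 110 lower, and 224 and 329 with each library centred on its median gene. With the block 3 members (PMVK, NPC2 and MYLIP) were higher with the miR-126 mimic, beside 15.8% of tested genes, and 4 (IDI1, FDPS, FDFT1 and NSDHL) were lower, beside 3.06%.

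Between the miR-143 and miR-150 mimics, IDI1 was the member called and was higher with the miR-143 mimic, beside 1.59% of tested genes called higher and 0.604% called lower. It had 169.8, 154 and 175 TPM in miR-143 libraries, against 116, 116 and 105 TPM in miR-150 libraries. The log2 fold change was 0.56 ± 0.10 (SE, adjusted p = 0.0147 in limma). The call was lost without miR-143 library 2 (adjusted p = 0.0666), without miR-143 library 4 (0.0716), without both libraries that favour short transcripts (0.0561), without the 4 libraries numbered 3 (0.0633) and with each library centred on its median gene (0.127). Over all genes 218 were higher and 83 lower, and 198 and 126 with that centring. With the block 2 members were higher (IDI1 and MYLIP) and 2 lower (STARD4 and NPC2), beside 7.06% and 2.68% of tested genes.

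Most sterol enzymes were also low in library 3 of every group. Library 3 was the lowest of its group in all 4 groups for 12 of 18 sterol enzymes, for INSIG1 among 5 genes of SREBP control, for ELOVL6 among 8 fatty acid enzymes and for 0 of 5 efflux genes. Over all members this held for 38.9%, beside 9.43% of tested genes, and library 3 was the highest of its group in all 4 groups for 0 members, beside 18.9% of tested genes. The median difference of library 3 from the mean of libraries 2 and 4 over the sterol enzymes was −0.41 on the log2 scale in miR-126 libraries, −0.37 in miR-143 libraries, −0.43 in miR-150 libraries and −0.41 in scrambled RNA libraries. Over the 8 fatty acid enzymes it was −0.405, −0.306, 0.102 and −0.299 in the same groups, and over all tested genes 0.05, 0.04, 0.22 and 0.06. SREBF2, FASN, SCD, FADS1, FADS2 and ELOVL5 also had their lowest value in library 3 of the miR-126, miR-143 and scrambled RNA groups. In the miR-150 group library 4, which favours short transcripts, was lower for each of them.

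MSMO1, the oxidase that removes the methyl groups at the sterol C4 position, showed the pattern most among sterol enzymes. It had 169, 85.6 and 198 TPM in miR-126 libraries 2, 3 and 4, 243, 97.8 and 230.4 TPM in miR-143 libraries, 229, 105 and 180.3 TPM in miR-150 libraries, and 175, 85.8 and 189 TPM in scrambled RNA libraries. Library 3 differed from the mean of libraries 2 and 4 by −1.27 to −0.94 on the log2 scale, while the largest log2 fold change of MSMO1 against scrambled RNA was 0.32. ELOVL6, which extends palmitate, had 12.4, 2.49 and 11.5 TPM in miR-126 libraries, 8.10, 1.95 and 5.39 TPM in miR-143 libraries, 11.4, 2.92 and 8.23 TPM in miR-150 libraries, and 9.63, 2.66 and 11.1 TPM in scrambled RNA libraries. IDI1 had smaller differences, −0.16 to 0.07, and its library 3 was the lowest in 3 of 4 groups.

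The summed endothelial markers in libraries 2, 3 and 4 were 1701, 1147 and 1745 TPM with the miR-126 mimic, 2043, 1109 and 1509 TPM with the miR-143 mimic, 1796, 1137 and 1010 TPM with the miR-150 mimic, and 1731, 1361 and 2081 TPM with scrambled RNA. Library 3 was the lowest in each group except miR-150, where library 4 was lower. The summed fibroblast and pericyte markers were highest in library 3 of each group, at 33.3 to 44.7 TPM against 13.4 to 28.6 TPM in the other 8 libraries, and a single gene carried this. ACTA2, a smooth muscle actin, had 17.6 to 28.6 TPM in libraries numbered 3 and 2.38 to 10.3 TPM in the others. Without ACTA2, library 3 had the lowest sum in the miR-126, miR-143 and scrambled RNA groups and the highest with the miR-150 mimic. The labels do not say what a number marks, and the part of these differences in the sterol values was not tested.

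**Figure D4:**
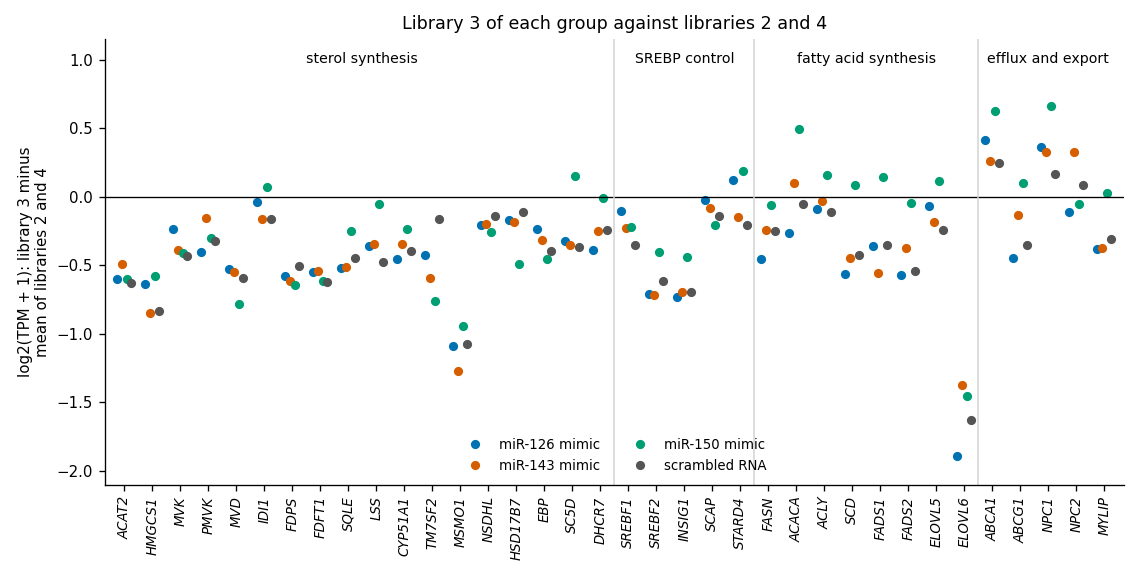
Log2(TPM + 1) of library 3 minus the mean of libraries 2 and 4 of the same group, for each member and each of the 4 groups. For 12 of 18 sterol enzymes, INSIG1 and ELOVL6, library 3 is the lowest library in all 4 groups, and efflux genes scatter around 0. Fatty acid enzymes other than ACACA lie below 0 in the miR-126, miR-143 and scrambled RNA groups.

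Since most sterol enzymes were low together in library 3, the promoters of the members were searched, in RefSeq windows from 250 bases before to 50 bases after a gene's start (GRCh38.p14), which were listed for 31 members. The sterol regulatory element was searched only as the string TCACNCCAC, read on both strands. It was found in 1 of 31 members, SREBF2 itself, and in 1.39% of 27305 symbols with a window. Forms of the element that differ from this string were not searched, so a promoter without it may still hold one. The CCAAT box, the letters CCAAT or ATTGG, was found in 23 of 31 members (74.2%), among them 13 of 15 sterol enzymes, against 39.7% of symbols. The GC box CCGCCC, on both strands, was found in 29 of 31 members (93.5%), against 48.3% of symbols, and the E-box CACGTG in 6 of 31 (19.4%), against 8.77%. None of the 4 motifs contains another. The symbols with a window were taken whether or not they were expressed here, whereas all members passed the expression filter. The shares are therefore not drawn from like sets of genes.

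The match in SREBF2 is printed with 10 bases on each side, at chr22:41832962-41832990 on the plus strand, with the match starting at position −133 from the gene's start. For 4 genes that were lowest in library 3 of every group, and for IDI1, which was lowest there in 3 of 4 groups, 1 CCAAT box each is shown along the gene's strand, with the box or its reverse complement in capitals.
SREBF2, sterol regulatory element: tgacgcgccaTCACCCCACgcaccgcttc
MSMO1, chr4:165327581-165327609, plus strand: caactgcacagaCCAATcaccgcgccgag
HMGCS1, chr5:43313496-43313524, minus strand: ctaccggccgcgATTGGctgtgggagcca
FDPS, chr1:155308732-155308760, plus strand: gacggccagcagCCAATcagcgcggctca
INSIG1, chr7:155297696-155297724, plus strand: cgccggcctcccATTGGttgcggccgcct
IDI1, chr10:1048957-1048985, minus strand: ctggcgcgagcgATTGGctgcgcggcccg
Among sterol enzymes with a window, the box was found in 9 of 9 that were lowest in library 3 of every group. It was also found in 4 of 6 that were not (IDI1, LSS, SC5D and DHCR7), but not in PMVK or CYP51A1. That split was taken from these data. IDI1, LSS, SC5D, DHCR7 and CYP51A1 missed it only in the miR-150 group, where library 4 was lower than library 3. Whether the box goes with the library 3 values was not tested. These matches describe letters in a window, and neither SREBP binding nor release was measured.

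Beyond the 36 members, 12 other sterol genes, 20 other fatty acid genes and 12 other genes of efflux and storage were examined, of which 12, 19 and 11 were tested. With the miR-126 mimic 1 of 11 tested genes of efflux and storage was higher and 0 lower, 0 of 19 fatty acid genes were higher and 1 lower, and 0 of 12 sterol genes were higher and 1 lower. APOE, the lipoprotein component that accepts cholesterol leaving the cell, had 36.7, 29.7 and 38.7 TPM in miR-126 libraries, against 12.97, 12.3 and 9.03 TPM in scrambled RNA libraries. Every miR-126 value is above every scrambled RNA value, and APOE rose, with a log2 fold change of 1.54 (SE 0.18, limma adjusted p = 0.00119). MID1IP1, which promotes the assembly of active acetyl-CoA carboxylase, had 5.90, 5.70 and 4.56 TPM in miR-126 libraries, against 8.87, 9.83 and 8.82 TPM in scrambled RNA libraries, and it fell (log2 fold change −0.68, SE 0.16, limma adjusted p = 0.0355).

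With the miR-143 mimic 0 of these genes passed in limma, and 2 sterol genes, 3 fatty acid genes and 1 gene of efflux and storage had an unadjusted p under 0.05, which is 6 of 42 (14.3%) against 16.8% of all tested genes. With the miR-150 mimic 1 sterol gene and 1 fatty acid gene were lower and 0 of these genes were higher. The fatty acid gene was ACSL4, which activates arachidonic and related fatty acids, with 38.1, 51.3 and 20.9 TPM in miR-150 libraries, against 78.7, 98.5 and 91.8 TPM in scrambled RNA libraries. Every miR-150 value lies below every scrambled RNA value, and ACSL4 fell, with a log2 fold change of −1.35 (SE 0.29, limma adjusted p = 0.03). In the miR-126 libraries ACSL4 had 105, 119 and 108 TPM.

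Reads of several members cannot be fully assigned. In GENCODE 29 ACAT2 shares exon bases on the opposite strand with SOD2 (1141 bases) and TCP1 (397 bases), FADS1 and FADS2 share 490 bases with each other, MVK shares 306 bases with MMAB and NPC1 shares 604 bases with RMC1. Whether the counting used strand is not given in the sources used here. The pseudogene HSD17B7P2 averaged 2.69 TPM beside the 34.6 TPM of HSD17B7.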

How the data were processed

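RNA of 12 HMEC-1 libraries was sequenced, and the values used are TPM per transcript as deposited by the authors. Per the submitters' processing notes, FastQC, kallisto, sleuth and GRCh38 (hg38) were used. The sources used here do not give versions, transcript annotation, filters or strand setting. Because TPM are scaled to a fixed total, abundant transcripts that shift will move the rest. A bias by transcript length is not removed, and depth is unknown. TPM of 187626 transcripts were summed to 36433 gene symbols, and 171 transcripts without a gene were left out. All 12 columns were matched to samples by name.

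The 13750 genes reaching 1 TPM in 3 or more libraries were fitted on log2(TPM + 1) with limma 3.58.1 in R 4.3.3, with all 12 libraries, group as the only term and a mean-variance trend. Tests were two-sided, p-values were adjusted over these genes by Benjamini-Hochberg, and the threshold was 0.05. Fold changes on this scale understate the change of low genes. The fit was tested on simulated data. Gene positions, transcripts and 3' UTRs came from GENCODE 29 on GRCh38, which held 90.55% of the table's transcripts by identifier.

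The members, lists and motifs were chosen with earlier results of these data known. Values in every library are given for members past the threshold against scrambled RNA, with or without the block where numbers pair, and for the 2 members of each list with the largest fold change. Some members are named beyond this rule, chosen after their values were seen. Some other genes of the pathway are not reported here.

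Across genes, libraries sharing a number had residuals that correlated at 0.289, 0.634 and 0.401 (numbers 2, 3 and 4) between miR-126 and scrambled RNA, and at 0.284 to 0.737 between mimics. All exceed 0.1, so those numbers were taken to pair libraries. With scrambled RNA, miR-143 libraries gave 0.0438, 0.65 and 0.174 and miR-150 libraries gave 0.0726, 0.604 and 0.0747, so libraries numbered 3 deviated together there but not every number passed 0.1. This pairing was inferred from these data, not from a label. Alternatives were another pseudocount, no filter, 2 other scalings, the replicate block and leaving out each library. The block was fitted over all libraries at once, with each number's effect shared by every group, including groups not paired with scrambled RNA. Leaving out the 2 libraries that favour short transcripts, or the 4 numbered 3, was chosen after seeing the data.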

Additional observations from a re-analysis of the deposited data

How the results depend on the processing

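Of 91 recomputed values of members called in the reported fit, 62 kept the call, 29 lost it and 0 changed sign. Of 598 values with no call there, 47 gained one and 551 did not. The number of members past the threshold was small and moved with most settings. For miR-126 against scrambled RNA it was 2, and it was 0 with no filter on low values, 4 after quantile normalization, 9 with the replicate block, 6 without the 2 libraries that favour short transcripts, 1 without the 4 libraries numbered 3 (TM7SF2, with ELOVL5 and NPC2 lost), and 0 to 1 when 1 library was left out. For miR-143 against scrambled RNA it was 1, against 2 with each library centred on its median gene, 2 after quantile normalization, 5 with the replicate block (MVK, IDI1, FDPS and INSIG1 higher, STARD4 lower, beside 12.9% of tested genes in either direction), 2 without the 2 short-transcript libraries, 0 without the libraries numbered 3, and 0 to 1 with 1 library left out. For miR-150 against scrambled RNA it was 0, against 4 with the replicate block (MVK, FDFT1, TM7SF2 and INSIG1 higher, beside 12.3% of tested genes in either direction), 1 without the libraries numbered 3, and 0 to 1 with 1 library left out. In these last 2 comparisons not every number paired the libraries. Between miR-126 and miR-143 it was 2, against 6 with the replicate block, 1 without the libraries numbered 3 and 2 whichever library was left out. Between miR-126 and miR-150 it was 1, against 3 with centring, 2 after quantile normalization, 7 with the replicate block, 5 without the 2 short-transcript libraries, 0 without the libraries numbered 3, and 0 to 2 with 1 library left out. Between miR-143 and miR-150 it was 1, against 2 after quantile normalization, 4 with the replicate block, 0 without the libraries numbered 3, and 0 to 2 with 1 library left out. Leaving out libraries also lowers the number of samples, and for the other settings the cause was not tested. Of the recomputed list medians, 150 moved by less than the spread between libraries and 6 by more. All 6 were of efflux and export genes with the miR-126 mimic. That spread is the SD of a list's mean within groups and includes the low values of library 3. The sterol median with the miR-143 mimic counts as moved by less, although it ran from −0.00611 to 0.396 with 1 library left out. These counts are therefore no measure of stability. The median of efflux and export genes with the miR-126 mimic was 0.12, against −0.0221 with centring, 0.0496 after quantile normalization, 0.0779 without the libraries numbered 3, and 0.093 to 0.23 with 1 library left out. TPM give no read totals, so a limit set by depth cannot be stated.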
